A study of Myotis pilosus with 4 samples.

Results

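The hairpins mir-7d to mir-7g were followed here through 1 listed arm of each, namely miR-7d-5p, miR-7e-3p, miR-7f-5p and miR-7g-3p. The list of mature miRNAs of Myotis ricketti holds these 4 and 192 others. Each was found by looking up its listed mature sequence among the sequenced tags, first as the identical tag and then as every tag that begins with its first 18 nt. Despite their names, none of the 4 had the seed of miR-7. miR-7d-5p and miR-7f-5p carried the seed of the let-7 family, and miR-7e-3p and miR-7g-3p came from the opposite arms of hairpins whose 5p arms carried it too. The 5p miRNAs were among the most abundant listed miRNAs in both tissues, with 1288513 reads of miR-7d-5p and 227183 of miR-7f-5p over the 4 libraries, whereas miR-7e-3p had 8 reads and miR-7g-3p had 1.

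A miRNA precursor folds into a hairpin with a 5p and a 3p arm. Usually one arm is loaded onto an Argonaute protein and guides it to mRNAs that pair with the seed, bases 2 to 8 of the miRNA, while the other arm is degraded. let-7 miRNAs are known for their abundance in differentiated tissues, including the adult brain, and for repressing regulators of growth and proliferation such as LIN28, RAS and HMGA2. The genuine miR-7 is unrelated to let-7 in sequence and is known from neurons and endocrine cells.

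Small RNA was sequenced from whole brain and intra-abdominal white adipose tissue (WAT) of adult wild bats in 2 physiological states. The libraries HB (brain) and HA (WAT) came from hibernating bats with a body temperature near 9 °C. AB (brain) and AA (WAT) came from active bats near 36 °C, a state named aroused in the sample labels. Each library was made from 1 pool of the RNA of 3 bats, so there are no replicates, no p-value is given, and an interval below covers counting error only. Capture was in October for the active and in March for the hibernating animals, so state and season cannot be told apart, and in whole tissue fewer cells of a type and less RNA per cell cannot be told apart either.

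Clean reads numbered 10007650 to 12159756 per library, and tags identical to the listed miRNAs held 1520859 of them in HA and 2393989 to 2546410 in the other libraries. The 5 neuronal marker miRNAs summed to 46712 reads per 1000000 clean reads (RPM) in AB and 37182 in HB against 207 in AA and 121 in HA, where miR-124-5p and miR-153-3p had 0 reads. This sum was mostly miR-124a-3p, with 44962 RPM in AB and 34186 in HB. Within brain, miR-129-3p went the other way from the sum, with 2800.5 RPM in HB and 1435 in AB. So did miR-124-5p, with 17.4 RPM in HB and 14.3 in AB. The 3 muscle miRNAs were all detected in WAT and summed to 18253 RPM in AA and 17409 in HA against 1605 to 1948 in brain, nearly all of it miR-1-3p. The 4 blood cell miRNAs, also all detected, summed to 253 and 268 in the WAT libraries, 62.4 in AB and 28.1 in HB, but miR-142-5p among them had 11.2 in HB and 5.90 in AB. The part of muscle or blood cells in the values below was not tested.

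The sequences show what the names do not. Below they are written 5′ to 3′ as DNA, with the seed in capitals, for the 4 named miRNAs and then for miR-7c-5p, the listed miRNA with the seed of the genuine miR-7.
miR-7d-5p: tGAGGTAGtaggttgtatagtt
miR-7f-5p: aGAGGTAGtaggttgcatagtt
miR-7e-3p: cTATACAAtctattgccttc
miR-7g-3p: cTGTACAGgccactgccttg
miR-7c-5p: tGGAAGACtagtgatttt

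The seed GAGGTAG was shared by 6 listed miRNAs, which were miR-7a-5p, miR-7b-5p, miR-7d-5p, miR-7e-5p, miR-7f-5p and miR-7g-5p. GGAAGAC, the miR-7 seed, was found in miR-7c-5p alone. As background, in human nomenclature the sequence listed as miR-7d-5p is that of let-7a and the sequence listed as miR-7f-5p is that of let-7d. The seed of miR-7e-3p, TATACAA, was also that of miR-7a-3p and miR-7d-3p, while no other listed miRNA had the seed of miR-7g-3p.

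Outside the seed the 5p miRNAs differed at few bases. The lines below show the 5p sequences that share the seed of miR-7d-5p and differ from it at 1 or 2 bases, here those of the other 5p arms of the 4 hairpins and of miR-7b-5p, again with the seed in capitals.
miR-7b-5p: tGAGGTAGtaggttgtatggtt
miR-7e-5p: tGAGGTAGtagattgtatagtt
miR-7g-5p: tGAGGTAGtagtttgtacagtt
With positions counted from 1 at the 5′ end and the base of miR-7d-5p given first, miR-7b-5p differed by A19G, miR-7e-5p by G12A, miR-7f-5p by T1A and T16C, and miR-7g-5p by G12T and T18C. miR-7f-5p was the only one of them to start with A in place of T. In the study's list of hairpins, mir-7d, mir-7e and mir-7f lie on 1 scaffold and strand of the Myotis lucifugus genome, and mir-7g lies on another scaffold, within an intron.

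miR-7d-5p had 364795 reads in AB, 244630 in HB, 366251 in AA and 312837 in HA. These were 36452 RPM in AB, 20118 in HB, 32022 in AA and 27103 in HA, so HB was the lowest of the 4 libraries. It ranked between 2 and 4 among the listed miRNAs in every library and held 15.2% of their reads in AB, 9.61% in HB, 15.3% in AA and 20.6% in HA. miR-7f-5p had 134582 reads in AB, 33998 in HB, 36531 in AA and 22072 in HA, or 13448, 2796, 3194 and 1912 RPM. Only the active brain stood apart for miR-7f-5p, and the other 3 libraries lay between 1912 and 3194 RPM. It ranked 7 in AB and 9 to 12 in the other libraries.

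miR-7e-3p had 8 reads in AA and 0 in AB, HB and HA, each of which allows up to 3 reads, or 0.247 to 0.300 RPM. The single read of miR-7g-3p was in HB, and it had 0 in the other libraries. Neither differed detectably between brain states at this depth. The other arms of these hairpins were abundant. miR-7e-5p had 84358 reads in AB, 72661 in HB, 84535 in AA and 83869 in HA, and miR-7g-5p had 15388, 12063, 14568 and 11519 in the same order. The opposite held for the other arms of the 5p miRNAs, with 6 reads of miR-7d-3p in AB, 11 in HB, 5 in AA and 3 in HA, and 14, 1, 9 and 1 of miR-7f-3p. In all 4 hairpins the 5p arm was thus the abundant one, also in mir-7e and mir-7g, for which the 3p arm is the named miRNA.

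**Figure D1:**
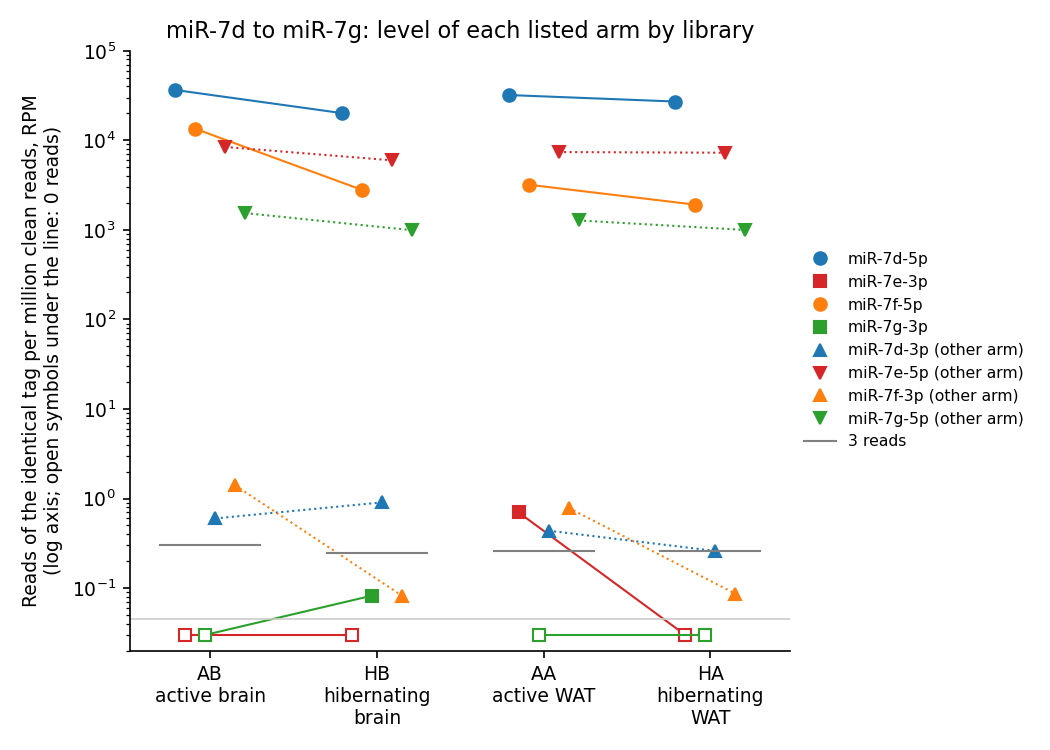
Reads of the identical tag per 1000000 clean reads (RPM, log axis) for the 4 named miRNAs and the other arm of each hairpin, in each of the 4 libraries; lines join the active and hibernating library of a tissue, grey bars mark 3 reads, and open symbols under the line mark 0 reads. The 5p arms lie between 992 (miR-7g-5p in HB) and 36452 (miR-7d-5p in AB) RPM, and the 3p arms lie at or under 1.40.

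Between states, miR-7f-5p differed in brain by more than miR-7d-5p did. Ratios are given as log2 of hibernating over active, scaled by TMM (trimmed mean of M values), which sets the libraries to a common level over all listed miRNAs. In brain the log2 ratio of miR-7f-5p was -1.98 (95% counting interval -1.993 to -1.959), or 3.93-fold lower in HB than in AB. That of miR-7d-5p was -0.57 (-0.57 to -0.56), or 1.48-fold lower. A log2 ratio of at least 1 in size was found for 1 of these 2, miR-7f-5p, against 40.5% of the 153 miRNAs whose reads in HB and AB came to 10 or more, and against 17.6% that were lower by as much. By ratio, miR-7f-5p was 10th from the lowest of the 153 and miR-7d-5p 46th. In the paper's quantitative PCR on individual bats, miR-7f-5p was also lower in hibernating brain, but the difference was not significant. The ratio of miR-7f-5p lay between -2.27 and -1.53, and that of miR-7d-5p between -0.86 and -0.12, over the 8 scalings and count rules tried. For 2 of the 8, the rules of the first 18 nt and of bases 2 to 17, reads of miR-7b-5p are counted with miR-7d-5p, and over the other 6 miR-7d-5p lay between -0.86 and -0.16.

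The other listed miRNAs with the let-7 seed differed less between brain states than miR-7f-5p did. Their log2 ratios were -0.57 for miR-7b-5p (-0.58 to -0.56), -0.34 for miR-7g-5p (-0.38 to -0.31), -0.21 for miR-7e-5p (-0.22 to -0.19) and 0.28 for miR-7a-5p (0.11 to 0.45), where that of miR-7b-5p was below 0 in all 8 scalings and count rules and the other 3 changed sign in some. The 3p arm of the mir-7f hairpin, miR-7f-3p, had 1 read in HB against 14 in AB, a log2 ratio of -3.80 with an interval of -9.20 to -1.08. With all length forms counted it had 11 reads in HB against 19 in AB. Its log2 ratio ranged from -4.09 to -1.05 over the 8 scalings and count rules. miR-7d-3p, with 11 against 6 reads, had 0.88 (-0.68 to 2.60), an interval that holds 0.

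In WAT, neither 5p miRNA reached a log2 ratio of 1 in size, against 49.3% of the 142 miRNAs with 10 or more reads. The log2 ratio of HA to AA was -0.39 (-0.41 to -0.37) for miR-7f-5p and 0.11 (0.10 to 0.12) for miR-7d-5p. The direction depended on the scaling, since over the 8 scalings and count rules miR-7f-5p ranged from -0.74 to 0.39 and was below 0 in 7, and miR-7d-5p ranged from -0.24 to 0.89 and was below 0 in 4, of which 2 count miR-7b-5p with it. The median of the 142 miRNAs was itself -0.29 in WAT and moved between -0.64 and 0.49 with the scaling, whereas the median of the 153 in brain was 0.01 and moved between -0.28 and 0.14. Relative to this median, which takes the scaling of the identical tags out, miR-7f-5p was at -1.98 in brain and -0.10 in WAT, and miR-7d-5p was at -0.58 in brain and 0.40 in WAT. miR-7e-3p, with 0 reads in HA and 8 in AA, was 2.11-fold lower in HA with TMM when its 0 was set to the floor of 3 reads. The counting error of the 8 reads is not in this value, and no interval was computed for it. As a log2 ratio it is -1.08, and it moved to -1.43 with scaling by clean reads, -0.83 by DESeq2 size factors, -0.76 by summed miRNA reads and -0.30 by TMM over conserved miRNAs. With all tags that begin with its first 18 nt it had 24 reads in AA and 7 in HA, and its log2 ratio was -1.76 to -1.54 under the 3 wider count rules.

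**Figure D2:**
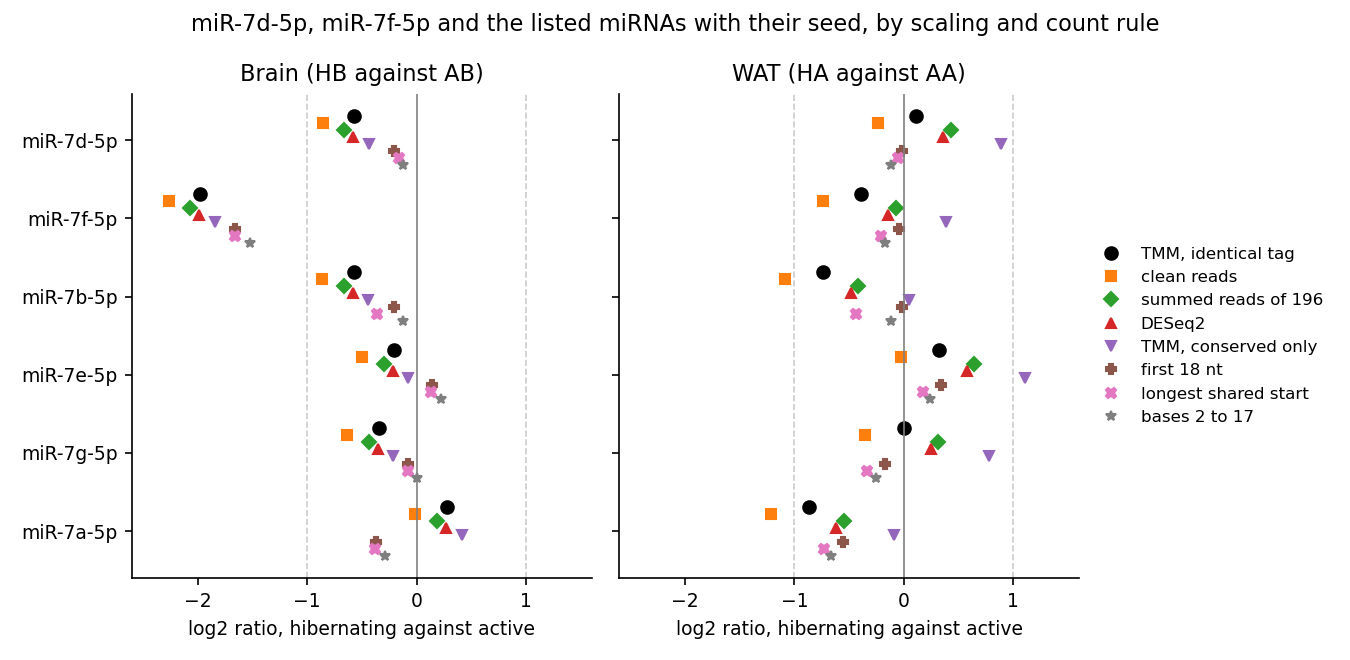
The log2 ratio of hibernating over active in brain (left) and WAT (right) for the 6 listed miRNAs with the let-7 seed, each symbol standing for 1 scaling or count rule; the black circle is the TMM ratio of the identical tag and dashed lines mark a ratio of 1 in size. Only miR-7f-5p in brain lies beyond -1 under every setting, between -2.27 and -1.53, while in WAT the symbols of miR-7d-5p spread from -0.24 to 0.89.

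Between tissues, miR-7f-5p was higher in the brain of active bats, while miR-7d-5p had nearly the same level in both tissues there. In the active state the log2 ratio of brain to WAT was 1.98 (1.965 to 1.998) for miR-7f-5p, or 3.95-fold higher in AB than in AA, and 0.09 (0.09 to 0.10) for miR-7d-5p. The ratio in hibernation was 0.45 (0.43 to 0.48) for miR-7f-5p and -0.52 (-0.53 to -0.52) for miR-7d-5p. Between tissues such a size was common. It was reached by 74.8% of 159 miRNAs in the active state, with 38.4% higher in brain, and by 76.1% of 159 in hibernation, and with TMM only miR-7f-5p of the 2 reached it, in the active state. That value ranged from 1.83 to 2.16 over the 8 scalings and count rules. In hibernation miR-7d-5p ranged from -1.10 to -0.02 over them and reached 1 in size with scaling by summed miRNA reads alone (-1.10). In the active state miR-7d-5p changed sign over them (-0.09 to 0.28), and in hibernation miR-7f-5p did (-0.12 to 0.61).

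The reads of one miRNA per 100 reads of the other need no scaling between libraries. For 100 reads of miR-7d-5p there were 36.9 reads of miR-7f-5p in AB (95% interval 36.7 to 37.1), 13.9 in HB (13.7 to 14.1), 9.97 in AA (9.87 to 10.1) and 7.06 in HA (6.96 to 7.15). miR-7f-5p was therefore 2.65-fold lower in HB than in AB relative to miR-7d-5p, and 1.41-fold lower in HA than in AA. When all the length forms of both were counted, the values were 27.4 in AB, 9.65 in HB, 7.28 in AA and 6.51 in HA, and the difference was 2.84-fold in brain and 1.12-fold in WAT. Against the same 100 reads, miR-7b-5p stood at 54.6 in HB and 54.9 in AB, so in brain these 2 kept nearly the same proportion as identical tags, whereas in WAT miR-7b-5p stood at 38.0 in HA and 68.2 in AA.

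The tag files keep each length form apart, and the identical tag was less than the whole of either miRNA. Every tag that begins with the first 18 nt was given to the listed miRNA with which it shares the longest start, which left 718186 reads for miR-7d-5p in AB, 774506 in HB, 777059 in AA and 714290 in HA, in 1305 tags. For miR-7f-5p these were 196813, 74733, 56553 and 46494 reads in 341 tags. The forms below are the most abundant, shown because they carry most of the difference between states, with the bases after the shared first 18 nt in capitals.
miR-7d-5p, listed form: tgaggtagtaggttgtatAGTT
miR-7d-5p, 1 base shorter: tgaggtagtaggttgtatAGT
miR-7d-5p, 1 adenine longer: tgaggtagtaggttgtatAGTTA
miR-7f-5p, listed form: agaggtagtaggttgcatAGTT
miR-7f-5p, 1 base shorter: agaggtagtaggttgcatAGT
miR-7f-5p, 2 bases shorter: agaggtagtaggttgcatAG
miR-7f-5p, 1 thymine longer: agaggtagtaggttgcatAGTTT
miR-7f-5p, 1 adenine longer: agaggtagtaggttgcatAGTTA

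The listed form of miR-7d-5p made up 50.8% of its reads in AB (95% interval 50.7 to 50.9) but 31.6% in HB (31.5 to 31.7), where the form shorter by 1 base was the most abundant, with 36.5% (36.4 to 36.6) against 28.4% in AB. In WAT the listed form held 47.1% in AA and 43.8% in HA. There the form shorter by 1 base held 33.8% in AA and 20.0% in HA. Longer forms went the other way, with 14.8% in HA against 5.27% in AA for 1 more adenine. Forms with 2 or more added bases held 4.003% in HA against 0.655% in AA. The same added adenine held 5.73% in AB and 8.71% in HB. For miR-7f-5p the listed form held 68.4% in AB and 45.5% in HB, and 64.6% in AA and 47.5% in HA. Its form with 1 more thymine held 5.80% in AB, 5.10% in HB, 5.69% in AA and 11.5% in HA, and its form with 1 more adenine held 3.48%, 6.66%, 3.98% and 8.07%. From the tags alone, an added base that the hairpin encodes cannot be told apart from one added later.

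A lower share of the listed form in hibernation was not particular to these 2. Among miRNAs with 100 or more reads in each library, it was lower in HB than in AB for 58.3% of 96 and lower in HA than in AA for 73.9% of 88. The form with 1 more adenine took a larger share in hibernation for 52.1% of the 96 in brain and for 63.6% of the 88 in WAT. Among the listed let-7 miRNAs, the listed form held 37.9% in HB and 53.0% in AB for miR-7b-5p, 23.7% and 36.3% for miR-7e-5p, and 28.7% and 41.5% for miR-7g-5p. For miR-7a-5p it held 35.8% in HB and 27.4% in AB. It was thus lower in HB for 5 of the 6 listed miRNAs with the let-7 seed and higher for miR-7a-5p. In WAT it was lower in HA for miR-7a-5p (18.3% against 24.1%), miR-7b-5p (37.9% against 55.9%) and miR-7e-5p (32.6% against 35.2%), and higher for miR-7g-5p (48.4% against 46.0%).

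**Figure D3:**
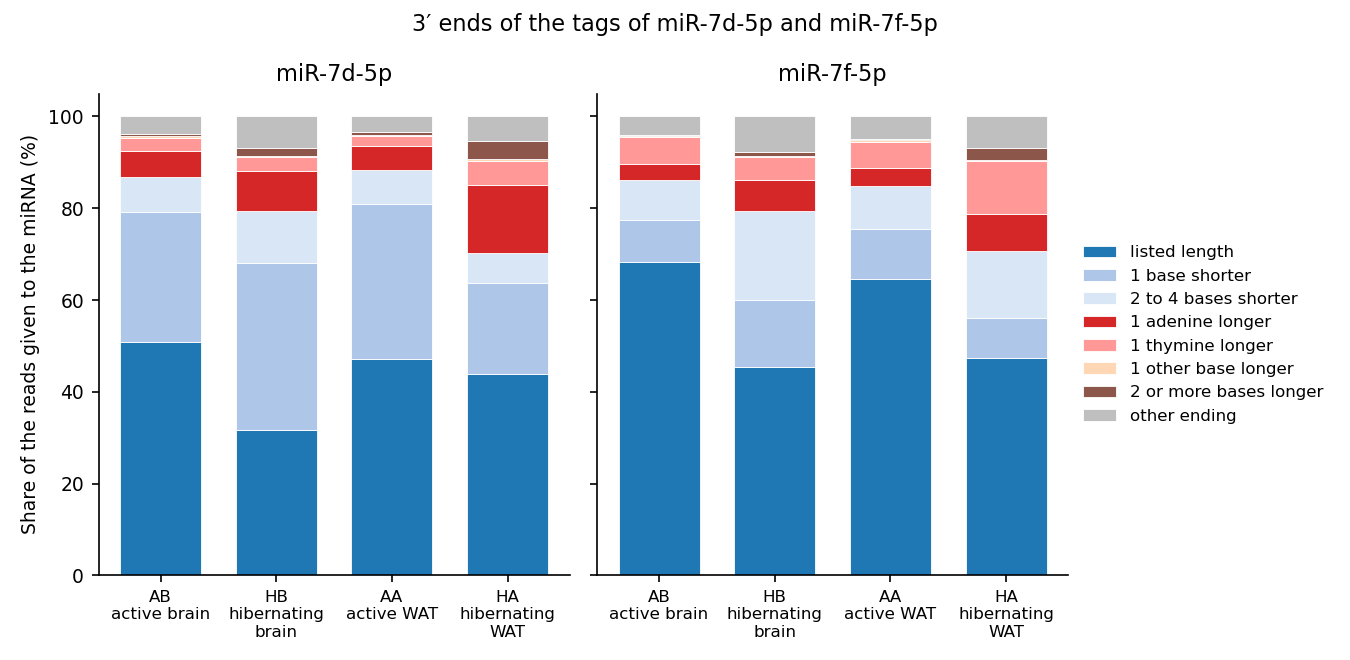
Share of the reads of miR-7d-5p (left) and miR-7f-5p (right) by the 3′ end of the tag, in each of the 4 libraries; the segments of each bar sum to 100%. The listed length holds 50.8% in AB and 31.6% in HB for miR-7d-5p, and 68.4% and 45.5% for miR-7f-5p, and the red segment of the added adenine is widest in HA for both.

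The ratio between states therefore differed from form to form of 1 miRNA. In brain, with the TMM scaling of the identical tags kept, the listed form of miR-7d-5p had the log2 ratio of -0.57 given above, but the form shorter by 1 base had 0.48 (0.47 to 0.49), the form with 1 more adenine 0.72 (0.71 to 0.74), and forms with 2 or more added bases 1.81 (1.76 to 1.87). Summed over all forms the log2 ratio of miR-7d-5p was 0.12 (0.11 to 0.12), and -0.16 when TMM was recomputed on counts of all forms, so its direction in brain depended on which tags were counted and how they were scaled. miR-7f-5p kept its direction in sum, with -1.39 (-1.40 to -1.38) over all forms and -1.66 with TMM recomputed. Its forms ranged from -1.98 for the listed one and -1.57 for 1 more thymine, through -0.72 for 1 base shorter and -0.34 for 2 bases shorter, to 0.04 (-0.03 to 0.10) for 4 bases shorter and 0.23 (0.07 to 0.39) for 2 or more added bases.

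In WAT the highest ratios of both miRNAs were those of forms with 1 more adenine, 1 more thymine or 2 or more added bases. For miR-7d-5p they were 1.71 (1.69 to 1.72) with 1 more adenine, 1.502 (1.475 to 1.528) with 1 more thymine and 2.83 (2.78 to 2.87) with 2 or more added bases, against -0.54 (-0.55 to -0.53) for 1 base shorter. For miR-7f-5p they were 1.07 (0.997 to 1.15), 1.06 (1.001 to 1.13) and 2.97 (2.75 to 3.19), against -0.29 (-0.35 to -0.24) for 1 base shorter. Its forms shorter by 2 and 3 bases had 0.79 (0.73 to 0.85) and 0.92 (0.79 to 1.05), near those of 1 added base. For miR-7d-5p these 2 shorter forms had 0.01 (-0.01 to 0.03) and 0.13 (0.08 to 0.17). The rare forms with 1 more guanine or cytosine had 1.07 and 1.09 for miR-7d-5p and 0.59 (0.21 to 0.97) and 0.85 for miR-7f-5p, and in brain those of miR-7d-5p had -0.28 and -0.12. Over all forms the sum was 0.21 (0.21 to 0.22) for miR-7d-5p and 0.05 (0.04 to 0.07) for miR-7f-5p in WAT, and with TMM recomputed these became -0.05 and -0.21.

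**Figure D4:**
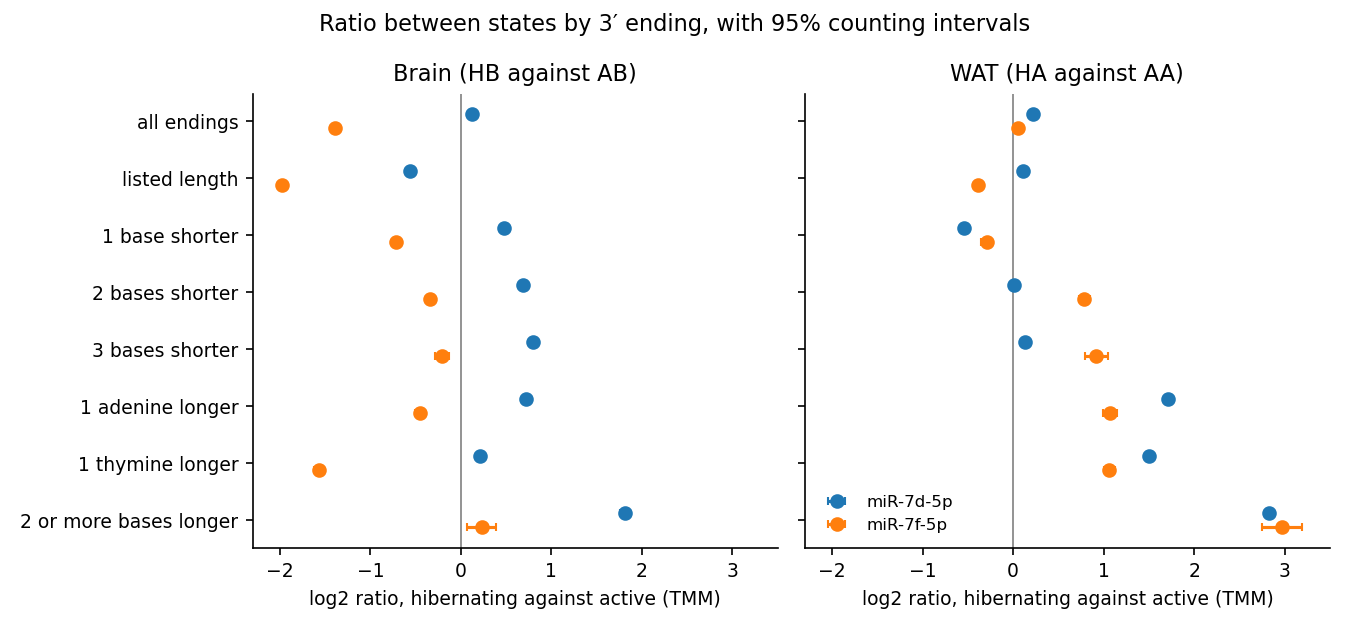
The log2 ratio of hibernating over active for the 3′ endings named on the vertical axis, and for all endings summed, of miR-7d-5p (blue) and miR-7f-5p (orange), in brain (left) and WAT (right), with the TMM scaling of the identical tags; bars are 95% counting intervals, most of them smaller than the points. In brain the listed length of miR-7d-5p lies at -0.57 and its other plotted endings above 0, and in WAT the plotted endings with added bases lie between 1.06 and 2.97 for both miRNAs.

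The 5′ ends, which set the seed, varied little. Of the reads of miR-7d-5p, 99.5% began at the listed base, 0.197% began 1 base later and 0.261% began 1 base earlier. For miR-7f-5p, 99.3% began at the listed base, and the share by library lay between 99.0% in AA and 99.5% in AB.

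The first 18 nt did not identify miR-7d-5p, because miR-7b-5p has the same 18 and differs from it at base 19. Tags with this start had 1106972 reads in AB, 1147915 in HB, 1231807 in AA and 1032012 in HA, in 2389 tags. Base 19 was A, as in miR-7d-5p, in 64.9% of these reads in AB, 67.5% in HB, 63.1% in AA and 69.2% in HA, and G, as in miR-7b-5p, in 34.2%, 30.8%, 36.3% and 30.4%. The tag ended before base 19 in 0.188% to 1.41% of the reads. No other listed miRNA shared the first 18 nt of miR-7f-5p.

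Among the 66 tags that differ from miR-7d-5p at 1 base, 2 are listed, A19G (miR-7b-5p) with 545 reads and G12A (miR-7e-5p) with 253 reads per 1000 reads of miR-7d-5p. Of the 64 others, the most abundant was T9G, with 134 per 1000, and the median was 0.579 per 1000. T9G had 259 per 1000 in AB and 209 in HB but 42.3 in AA and 35.0 in HA, so its proportion to miR-7d-5p differed by tissue. The next was T22A, with 24.2 per 1000. For miR-7f-5p all 66 were unlisted, the median was 0.546 per 1000, and T22A was again the highest, with 28.5 per 1000. A tag between the 2 miRNAs, which is T16C of miR-7d-5p and A1T of miR-7f-5p, had 3363 reads, or 2.61 per 1000 of the first and 14.8 per 1000 of the second.

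The few reads of the 3p miRNAs came in several lengths, and the listed form was not the most abundant for either. miR-7e-3p had 43 reads in 12 tags that begin with its first 18 nt, with 5 in AB, 7 in HB, 24 in AA and 7 in HA. The most abundant of them was 2 bases longer than the listed form, with 2 reads in AB, 3 in HB, 4 in AA and 0 in HA. miR-7g-3p had 5 reads in 4 tags, of which 1 was in AB, 2 were in HB, 2 in AA and 0 in HA. Capitals mark the bases after the first 18 nt.
miR-7e-3p, listed form, 8 reads: ctatacaatctattgcctTC
miR-7e-3p, most abundant form, 9 reads: ctatacaatctattgcctTCCT
miR-7g-3p, listed form, 1 read: ctgtacaggccactgcctTG
miR-7g-3p, most abundant form, 2 reads: ctgtacaggccactgcctTGCT

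With all forms counted, the 3p arm of mir-7e gave, per 1000000 reads of both arms, 21.5 in AB (6.99 to 50.3), 22.8 in HB (9.18 to 47.0), 100.1 in AA (64.1 to 149) and 27.2 in HA (10.9 to 56.1). The interval of AA thus lay above those of the other 3 libraries. The 3p arm of mir-7g gave 27.0 to 63.2 per 1000000 reads in HB, AB and AA, and 0 of 23792 in HA, where the interval reaches 155. That of mir-7f was the highest of the 4 hairpins over all libraries, with 157 per 1000000 reads, against 49.6 for mir-7d, 41.5 for mir-7e and 37.2 for mir-7g. The 3p arm of mir-7f had 424 per 1000000 reads in AA (272 to 631) and 96.5 to 147 in the other libraries.

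The seed was also searched in every tag, listed or not. GAGGTAG stood at bases 2 to 8 of 23740 tags with 8162563 reads, which were 21.5% of the clean reads in AB, 16.95% in HB, 19.5% in AA and 14.9% in HA. Their sum had a log2 ratio between states of -0.05 in brain and -0.03 in WAT with the TMM scaling of the listed miRNAs, and of -0.34 and -0.38 with scaling by clean reads. With this TMM scaling, which rests on identical tags, the let-7 seed as a whole differed little between states. By clean reads it was lower in hibernation in both tissues. Within the seed, the share of miR-7f-5p differed between states in brain and was nearly the same in WAT. Tags with the first 18 nt of miR-7f-5p held 9.16% of the reads with the seed in AB, 3.63% in HB, 2.54% in AA and 2.70% in HA. The shared start of miR-7b-5p and miR-7d-5p held 51.5%, 55.7%, 55.3% and 59.9%. By contrast, the miR-7 seed GGAAGAC held 0.546% of the clean reads in AB, 0.611% in HB, 0.0188% in AA and 0.0428% in HA. miR-7c-5p itself had 10140 reads in AB, 20988 in HB, 325 in AA and 983 in HA, so the genuine miR-7 was far higher in brain than in WAT, with a log2 ratio of 5.06 in the active state and 4.25 in hibernation.

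Of the reads with the let-7 seed, 25.6% were in tags that begin with the first 18 nt of no listed miRNA. The 5 most abundant such tags came from 2 starts, which differ from that of miR-7d-5p by A17G and by T9G. They are shown because they are let-7 sequences in these bats that the list lacks, with the seed in capitals.
A17G start, 240566 reads: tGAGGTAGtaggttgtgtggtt
T9G start, 172245 reads: tGAGGTAGgaggttgtatagtt
T9G start, 158762 reads: tGAGGTAGgaggttgtatagt
A17G start, 153873 reads: tGAGGTAGtaggttgtgtggt
A17G start, 152111 reads: tGAGGTAGtaggttgtgtg
As background, the first of them has the sequence of human let-7b and the second that of human let-7e. The A17G start held 11.3% of the reads with the seed in AB, 8.62% in HB, 22.9% in AA and 14.5% in HA. The T9G start held 11.5% in AB and 10.7% in HB but 2.10% in AA and 2.35% in HA. It was higher in brain by a log2 ratio of 2.51 in the active state and 2.27 in hibernation, whereas the start of miR-7f-5p was higher in brain by 1.90 in the active state and by 0.51 in hibernation.

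**Figure D5:**
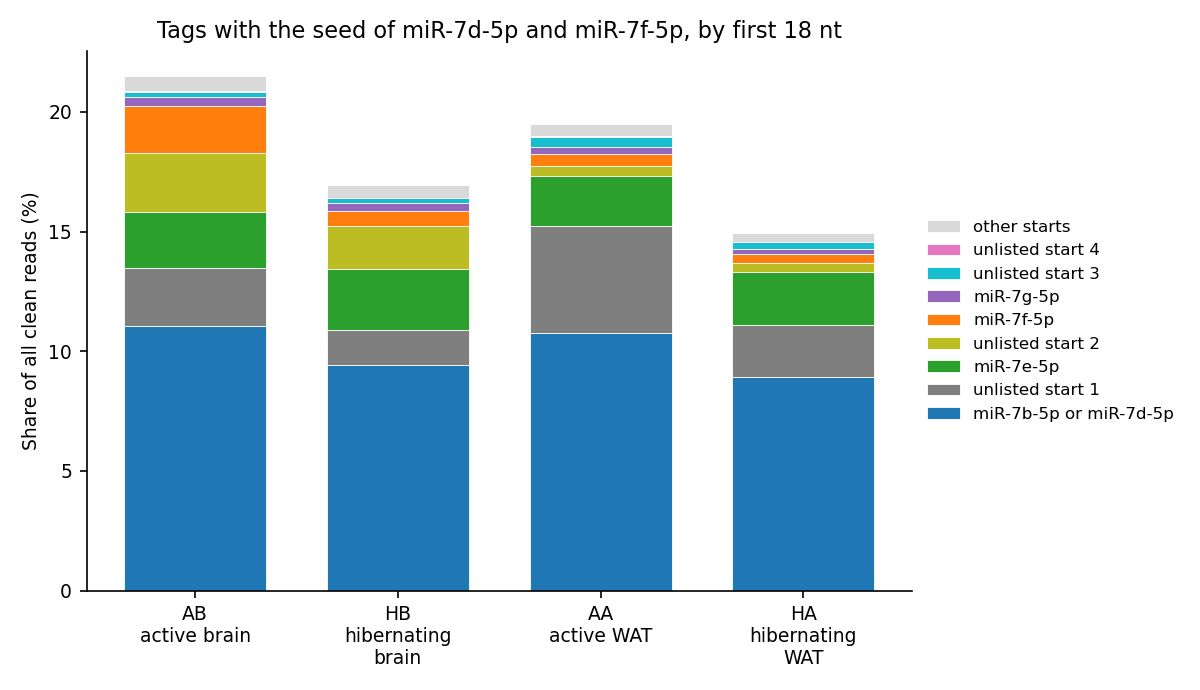
Reads of all tags with the seed of miR-7d-5p and miR-7f-5p as a share of the clean reads of each library, stacked by the first 18 nt of the tag; unlisted start 1 is A17G, unlisted start 2 is T9G, and the other unlisted starts begin with the first 18 nt of no listed miRNA either. The bars reach 21.5% in AB, 16.95% in HB, 19.5% in AA and 14.9% in HA, and the orange segment of miR-7f-5p is widest in AB.

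Other listed miRNAs had patterns over the 4 libraries close to that of miR-7d-5p, while those nearest to miR-7f-5p differed more from it. Likeness was taken as the distance between log2 levels after each miRNA was centred on its own mean, over 4 libraries and 129 miRNAs with 100 or more reads, and the median distance of the 129 from miR-7d-5p was 2.62. The nearest to miR-7d-5p were miR-151-3p (distance 0.235), miR-148-3p (0.290), miR-7e-5p (0.307), miR-7g-5p (0.309) and miR-140-3p (0.572). For miR-7f-5p the median distance was 3.56, and the nearest were a bat-specific miRNA (0.776), miR-185-5p (1.07), miR-30a-3p (1.13), miR-29-5p (1.15) and a second bat-specific miRNA (1.29). None of these 5 had the let-7 seed, and miR-7d-5p came 21st, at 1.78. The centred log2 level of miR-7f-5p was -0.31 in HB and 1.67 in AB. The first bat-specific miRNA, at -0.09 and 1.38, came nearest to this difference between brain states. It was smaller for miR-185-5p (0.56 and 1.14), miR-30a-3p (0.19 and 0.80), miR-29-5p (0.45 and 0.81) and the second bat-specific miRNA (0.54 and 0.73). miR-185-5p had 1178 reads in AB, 780 in HB, 457 in AA and 218 in HA. The others near miR-7f-5p had few reads per library. These were 8 to 68 for the first bat-specific miRNA, 21 to 84 for miR-30a-3p, 32 to 108 for miR-29-5p and 15 to 45 for the second bat-specific miRNA. With 4 libraries such an order is a description of these libraries.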

How the data were processed

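Small RNA of 18 to 30 nt from 4 pools of bats was sequenced by the authors on the Illumina/Solexa platform. Reads with adapter or of low quality had been taken out, and the deposited files pair each distinct clean sequence (tag) of a library with its raw read count, not normalized. The mature sequences and hairpin names were taken from the study's supplementary list, and no count or fold change of it was used. The count of a miRNA was that of the identical tag. Columns of other samples numbered 0.

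Log2 ratios of 2 libraries were scaled by TMM (edgeR 4.0.16, R 4.3.3) over the 196 miRNAs, with exact Clopper-Pearson 95% intervals computed in R. Intervals of shares and of length forms were computed with SciPy 1.17.1. All cover counting error only and treat each read as independent. PCR copies are not independent molecules, so the intervals may be too narrow even for counting error. A count of 0 was set to a floor of 3 reads, and no ratio was given where both libraries had 3 reads or fewer. The procedure was tested on counts simulated with counting noise alone and planted log2 changes of 2 in size, up or down. It recovered 60 of 60 changed miRNAs among 153 in brain and 60 of 60 among 142 in WAT. A planted change of that size made recovery likely in advance, and spread between animals was not simulated. In the same simulations 6 of 93 unchanged miRNAs in brain and 4 of 82 in WAT also passed a log2 ratio of 1. The counting interval held the planted value for 96.7% of miRNAs in brain and 93.0% in WAT. Alternatives were scaling by clean reads, by summed miRNA reads, by DESeq2 1.42.0 size factors or by TMM over the 119 conserved miRNAs, counting every tag with the first 18 nt, with the longest shared start or with bases 2 to 17, other count minimums, and tags with 2 or more reads. The comparison of miR-7f-5p with miR-7d-5p over all length forms was added after the data were seen.

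The miRNAs named are the 4 chosen, the other arms of their hairpins, the miRNAs listed as miR-7a to miR-7g, the 5 nearest in pattern to each 5p miRNA, the 5 most abundant tags of each 5p start and of unlisted starts with the seed, and the markers. The members and lists were chosen with earlier results of these data known. A genome of Myotis ricketti was not used here, and miRBase was not searched.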

Additional observations from a re-analysis of the deposited data

Results flagged for a closer look

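The log2 ratio of hibernating over active of miR-7d-5p was -0.57 in brain and 0.11 in WAT, so the 2 tissues lay on opposite sides of 0. With 1 library per group the difference was not tested. In WAT the sign turned to -0.24 with scaling by clean reads, and with all length forms counted the 2 values were 0.12 in brain and 0.21 in WAT. When TMM was also recomputed on all forms, both lay below 0, at -0.16 in brain and -0.05 in WAT.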

How the results depend on the processing

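No paired analysis was possible because each group had 1 library, without a replicate to pair or to leave out. The log2 ratio of miR-7d-5p in brain was -0.86 with scaling by clean reads, -0.66 by summed miRNA reads, -0.58 by DESeq2 size factors and -0.44 by TMM over conserved miRNAs, and -0.21 with all tags of the first 18 nt, -0.16 with the longest shared start and -0.12 with bases 2 to 17. In the same order its ratio in WAT was -0.24, 0.43, 0.36, 0.89, -0.015, -0.050 and -0.12. That of miR-7f-5p in brain was -2.27, -2.07, -1.98, -1.84, -1.66, -1.66 and -1.53, and in WAT it was -0.74, -0.072, -0.14, 0.39, -0.042, -0.21 and -0.17. The count rules recompute TMM, so that both the tags and the scaling change, and the first 18 nt and bases 2 to 17 count miR-7b-5p with miR-7d-5p; the cause was not tested.

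Between states, 62 miRNAs in brain and 70 in WAT had a log2 ratio of at least 1 in size. A minimum of 100 reads lowered these to 32 and 38, and the number between tissues to 74 in the active state and 78 in hibernation, since fewer miRNAs were tested, and a whole counting interval beyond 1 lowered those between states to 29 and 31. With tags of 2 or more reads only, the let-7 seed held 21.4% of the clean reads in AB, 16.9% in HB, 19.4% in AA and 14.9% in HA. The shares of the listed forms kept within their counting intervals under the same rule. In all, 47 values recomputed for these comparisons kept within their limits and 37 moved. A further 30, for miR-7d-5p and miR-7f-5p between tissues or relative to each other, moved by more than their counting intervals over the ranges given in the report.

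Depth limits the 3p miRNAs, for which counts of 0 to 8 reads of the listed tag allow no statement on states in brain. For the 5p miRNAs the intervals of counting are narrow, but pools of 3 bats hide the spread between animals.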

Other observations

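The hairpin of the genuine miR-7, mir-7c, had another balance of arms than mir-7d to mir-7g. Its 3p arm, miR-7c-3p, had 211 reads in AB, 213 in HB, 102 in AA and 36 in HA, against 10140, 20988, 325 and 983 of miR-7c-5p. Per 1000000 reads of both arms these were 20385 in AB, 10047 in HB, 238876 in AA (95% interval 199191 to 282221) and 35329 in HA. With all length forms they were 5081, 4834, 89696 and 16858, so AA was the highest by either count. The balance of mir-7c was not particular to it in brain. By the count of all length forms mir-7a, whose 5p arm has the let-7 seed, gave 3559 in AB and 4388 in HB. It gave less than mir-7c in WAT, with 7790 in AA and 5093 in HA, from 3 to 8 reads of its 3p arm per library. The log2 ratio of hibernating over active was 1.06 in brain and 1.93 in WAT for miR-7c-5p, and 0.02 and -1.17 for miR-7c-3p. Over the 8 scalings and count rules miR-7c-5p lay between 0.18 and 1.19 in brain and between 1.25 and 2.71 in WAT.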
